A study of Arvicanthis niloticus with 28 samples.

Results

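A set of 6 genes of caveolae and of vesicle transport across the endothelium, Cav1, Cav2, Plvap, Ehd2, Ehd4 and Pacsin2, was followed in the retinal vasculature of 28 Nile rats (Arvicanthis niloticus), a diurnal rodent that develops diabetes on standard laboratory chow. The rule that chose the 6 genes names them by role and uses none of their measured values. The choice was made with earlier results of these data known. All 6 stand among the 18970 genes of the deposited tables. Each library held RNA of the whole retinal vasculature of 1 rat, from which the neurons had been washed off after osmotic lysis. All rats were labelled wild type and untreated, and age and diet were not used here. The pre-dropout group comprised 4 male rats with 17.1 to 17.9 acellular capillaries per mm2, capillaries that have lost their cells and remain as empty tubes. The normal group comprised 24 rats, 8 males and 16 females, with 5.90 to 14.5 acellular capillaries per mm2. Random blood glucose exceeded 200 mg/dL in 5 hyperglycemic rats (4 males and 1 female, 226 to 443 mg/dL), of which 2 were pre-dropout, and stood at 52.0 to 147 mg/dL in 23 normoglycemic rats. Because all pre-dropout rats were male, density group and sex could be separated only by fits with sex as a covariate or within the males.

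Caveolae are flask-shaped pits of the plasma membrane that carry cargo across endothelial cells, and endothelium of the blood-retina barrier keeps this transcytosis low. Cav1 encodes the caveolin that builds the pit, and Cav2 a second caveolin that assembles with it. Pacsin2 is an F-BAR protein that bends the membrane at the caveolar neck, Ehd2 is an ATPase that holds caveolae at the cell surface, and Ehd4 is a relative of Ehd2 that acts in endosomal traffic. Plvap forms the diaphragms of fenestrae and caveolae, is scarce in barrier endothelium and marks leaky vessels.

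The libraries summed to 153108 to 10029198 expected counts (median 3781800) and 2 libraries, T410F and T448M, lay below 1000000. The tissue label was borne out by endothelial markers, since Cldn5, the tight junction protein of the barrier, had the third highest median of all genes (27392 TPM). Markers of other cells were also present. The summed level of 9 rod genes ranged over rats between 169 and 4955 CPM, counts per 1000000 scaled between libraries by TMM. Its median was 765 CPM. The 6 markers of Mueller glia and astrocytes summed to more, with a median of 2873 CPM (879 to 6010). The part of these glia in the levels of the 6 genes was not tested. In bulk samples of this kind, fewer cells of a type and less RNA per cell cannot be told apart. One library was made per rat, so that the spread given below is that between rats and includes any technical spread.

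Levels were compared between genes in TPM, transcripts per 1000000, which takes transcript length into account. The caveolins were the most abundant of the 6 genes. Cav2 had a median of 984 TPM (504 to 1790, n = 28) and ranked 67 of 18970 genes by median, and Cav1 had a median of 850 TPM (489 to 1235) and ranked 85. Both stood above Pecam1, the endothelial adhesion molecule, by median (502 TPM), and far below Cldn5 in all 28 rats. In expected counts the gap to Cldn5 was narrower, with sums over the rats of 324958 for Cldn5 and 87854 for Cav1. Its size in TPM thus depends on the transcript lengths used, which were not checked. The order of the caveolins themselves depended on the measure. In TPM, Cav2 exceeded Cav1 in 14 of 28 rats, with a ratio between 0.557 in T448M and 2.48 in T425M and a median ratio of 1.02. In CPM, which leaves transcript length out, Cav1 had the higher median, 693 CPM against 420 CPM for Cav2.

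The 3 genes of the caveolar neck and endosome were lower than the caveolins. Pacsin2 had a median of 307 TPM (122 to 744), Ehd2 of 273 TPM (108 to 892) and Ehd4 of 110 TPM (20.9 to 315). Cav2 exceeded Pacsin2 and Ehd2 in 28 of 28 rats, and Cav1 exceeded Pacsin2 in 26 and Ehd2 in 27. Pacsin2 and Ehd2, neighbours in the order, were not separated beyond their spread in TPM, since Pacsin2 was the higher in 19 of 28 rats (ratio 0.496 to 2.30). In CPM, without transcript length, their medians were 225 CPM for Pacsin2 and 151 CPM for Ehd2. Ehd4 lay below Pacsin2 in 27 rats and below Ehd2 in 26. Plvap was at the bottom with a median of 0 TPM and a highest value of 13.3 TPM, below Ehd4 in all 28 rats. Together the 6 genes held 0.267% ± 0.0712 of TPM (SD, n = 28), with 0.423% in T353M as the highest share and 0.141% in T419F as the lowest.

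**Figure D1:**
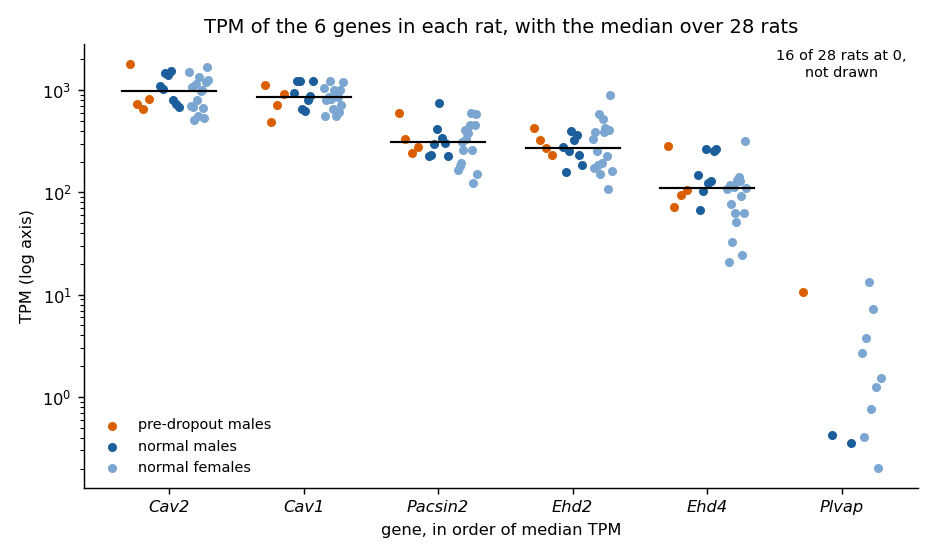
TPM (log axis) of each gene in each rat, in order of median TPM, with 1 point per rat coloured by density group and sex and a black line at the median over 28 rats. Cav2 (median 984 TPM) and Cav1 (850 TPM) overlap, Pacsin2 (307 TPM) and Ehd2 (273 TPM) overlap, Ehd4 (110 TPM) is lower, and Plvap is drawn only for the 12 rats in which it was above 0.

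The caveolins were also among the steadier transcripts of these vessels. The coefficient of variation of CPM over the 28 rats was 0.311 for Cav1 and 0.403 for Cav2, against a median of 0.656 over 8533 genes with a median of at least 10 CPM. Of those genes, 2.20% varied less than Cav1 and 9.96% less than Cav2. Pacsin2 (0.445) and Ehd2 (0.509) varied more, and Ehd4 (0.631) lay near the middle, with 46.1% of the abundant genes varying less. Rat T430F had the highest level of both Ehd2 and Ehd4, 403 CPM of Ehd2 and 217 CPM of Ehd4. Rat T419F had the lowest of Ehd2 (47.9 CPM) and of Pacsin2 (82.3 CPM).

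The question of the study's own comparison is whether transcripts of vessels just below the dropout range differ from those of normal vessels. The study reported genes that differed, all upregulated, by EBSeq on reads mapped to the Nile rat genome. Another test was used here, on counts taken to come from another pipeline. None of the 5 genes that could be tested differed between these groups beyond the spread between rats. Cav1 stood at 802, 444, 606 and 924 CPM in the pre-dropout rats T353M, T389M, T391M and T407M, against a lowest value of 412, a median of 693 and a highest of 1207 CPM in the normal rats. Cav2 stood at 661, 347.9, 284 and 429 CPM in the same 4 rats, against 206, 420 and 736 CPM (lowest, median and highest) in the normal rats. For each caveolin the median of the normal rats was exceeded by 2 of the 4 pre-dropout rats, and all 4 lay inside the normal range. The means were 694 ± 212 (SD, n = 4) and 755 ± 238 CPM (SD, n = 24) for Cav1, and 430 ± 165 and 454 ± 188 CPM for Cav2, pre-dropout before normal. The log2 difference was -0.12 (95% interval -0.67 to 0.43) for Cav1 and -0.08 (-0.74 to 0.58) for Cav2 (adjusted p = 1.0 for each by edgeR, quasi-likelihood F test, adjusted by the Benjamini-Hochberg method over all genes).

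Pacsin2, Ehd2 and Ehd4 overlapped in the same way. Pacsin2 stood at 368, 262, 180 and 243 CPM in pre-dropout rats T353M, T389M, T391M and T407M, against 82.3, 210 and 594 CPM (lowest, median and highest) in normal rats. Ehd2 stood at 175, 172, 132 and 133 CPM in the pre-dropout rats, against 47.9, 151 and 403 CPM in normal rats. The 4 pre-dropout values of Ehd2 were close together in the middle of a wide normal range, and the group means were 153 ± 23.6 (SD, n = 4) and 153 ± 83.7 CPM (SD, n = 24). Ehd4 stood at 175, 56.3, 68.8 and 91.6 CPM in the pre-dropout rats, against 14.6, 83.3 and 217 CPM in normal rats. T353M was the highest of the 4 pre-dropout rats in Cav2, Ehd2, Ehd4 and Pacsin2, and no pre-dropout rat left the normal range in any of these genes.

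**Figure D2:**
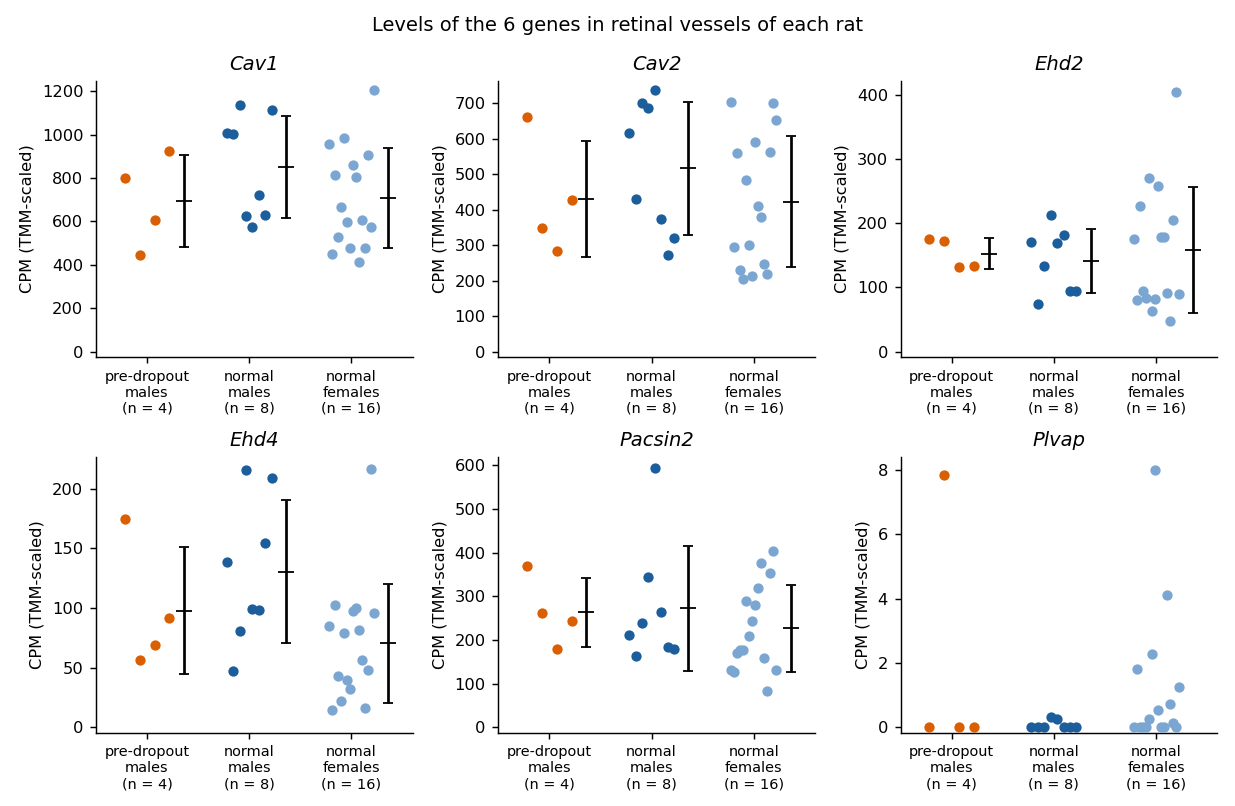
Level in CPM of each gene, 1 point per rat, in pre-dropout males (n = 4), normal males (n = 8) and normal females (n = 16), with the mean and SD drawn beside the points except for Plvap. The pre-dropout points lie inside the range of the normal rats in all 6 panels, and Ehd4 averages 131 CPM in normal males and 70.8 CPM in normal females.

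The log2 differences of Ehd2, Ehd4 and Pacsin2 between pre-dropout and normal rats were 0.00 (95% interval -0.77 to 0.77), 0.11 (-0.87 to 1.09) and 0.12 (-0.55 to 0.80). Their adjusted p was 1.0 by edgeR's quasi-likelihood test. A call needed an adjusted p under 0.05 together with a change beyond 2-fold, and 0 of the 5 tested genes met it, against 0% of 13800 genes. None of the 5 had an unadjusted p under 0.05, against 2.86% of the 13800 genes (27 higher and 367 lower). The median log2 difference was 0.00 over the 5 genes and -0.13 over all tested genes. Plvap had too few counts for the test. Other tools and settings called between 0 and 72 genes of the whole table in this comparison, and none of the 5.

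Sex was tied to density group, and endothelial and erythrocyte markers averaged higher in pre-dropout rats, within overlapping ranges. Rod markers averaged 4.40 ± 0.95 log2 CPM in pre-dropout and 4.40 ± 1.94 in normal rats. Pericyte markers averaged 7.62 ± 0.79 in pre-dropout and 7.85 ± 0.77 in normal rats. Within the males the log2 difference between pre-dropout (n = 4) and normal rats (n = 8) was -0.44 for Ehd4, with means of 97.9 ± 53.4 CPM in pre-dropout males and 131 ± 60.2 CPM in normal males, and -0.09 for Pacsin2. The direction of both was thus opposite to that over all rats, and neither passed the test (adjusted p = 1.0 for each, edgeR). It was -0.29 for Cav1, -0.29 for Cav2 and 0.08 for Ehd2. The mean level of 12 endothelial markers was 8.67 ± 0.21 log2 CPM in pre-dropout rats and 8.32 ± 0.48 in normal rats, and their summed level ranged over 6379 to 11028 CPM in pre-dropout rats and 3719 to 11584 CPM in normal rats. With this level as a covariate the log2 differences were -0.34 for Cav2, -0.34 for Ehd2, -0.21 for Ehd4 and -0.11 for Pacsin2. Erythrocyte markers, 3 of 5 listed genes, averaged 4.58 ± 0.69 log2 CPM in pre-dropout rats and 3.16 ± 0.93 in normal rats, with summed levels of 269.9 to 1986 CPM in pre-dropout and 16.2 to 2242 CPM in normal rats, and their part in the values was not tested. Without T353M, Ehd4 was at -0.33 and Pacsin2 at -0.07. Without T389M, Cav1 was at 0.05 and Cav2 at 0.00.

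Blood glucose was examined as the measure of diabetes. The caveolins differed by less than the spread between rats, with means of 746 ± 235 and 747 ± 237 CPM for Cav1 and 428 ± 163 and 456 ± 189 CPM for Cav2 in hyperglycemic and normoglycemic rats (SD, n = 5 and 23). Ehd4 and Pacsin2 were lower on average in hyperglycemic rats without passing the test. Cav1 stood at 1001, 444, 606, 958 and 721 CPM in hyperglycemic rats T370M, T389M, T391M, T392F and T446M, against 412, 665 and 1207 CPM (lowest, median and highest) in normoglycemic rats. Cav2 stood at 430, 347.9, 284, 704 and 373 CPM in the 5 hyperglycemic rats, against 206, 429 and 736 CPM in normoglycemic rats. Both groups spanned much of the same range, and the 2 rats of highest glucose, T389M (443 mg/dL) and T446M (422 mg/dL), lay below the normoglycemic median of Cav2. With sex as a covariate the log2 difference was -0.07 (95% interval -0.59 to 0.45) for Cav1 and -0.15 (-0.76 to 0.46) for Cav2.

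Ehd4 stood at 47.7, 56.3, 68.8, 85.2 and 98.8 CPM in hyperglycemic rats T370M, T389M, T391M, T392F and T446M, against 14.6, 91.6 and 217 CPM (lowest, median and highest) in normoglycemic rats. Only T446M lay above the normoglycemic median, and all 5 lay inside the range. Pacsin2 stood at 162, 262, 180, 131 and 264 CPM in the same rats, against 82.3, 238 and 594 CPM in normoglycemic rats. Here 2 of the 5 hyperglycemic rats lay above the normoglycemic median. The log2 difference was -0.65 for Ehd4 (95% interval -1.55 to 0.26, unadjusted p = 0.168) and -0.54 for Pacsin2 (-1.21 to 0.13, unadjusted p = 0.122), with adjusted p = 1.0 for each by edgeR's quasi-likelihood test. Ehd2, at 147 ± 45.2 CPM in hyperglycemic and 154 ± 83.8 CPM in normoglycemic rats (SD, n = 5 and 23), had a log2 difference of -0.01.

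Over the 5 genes all log2 differences with hyperglycemia were below 0, with a median of -0.15, against a median of 0.09 over all tested genes. None of the 5 was called, against 0% of 13800 genes, and none had an unadjusted p under 0.05, against 6.38% of those genes. Rod markers averaged 5.30 ± 1.79 log2 CPM in hyperglycemic rats and 4.20 ± 1.80 in normoglycemic rats, with summed levels of 337 to 4955 CPM in hyperglycemic and 169 to 2376 CPM in normoglycemic rats. With the rod level as a covariate Ehd4 was at -0.17 and Pacsin2 at -0.29. The 8 pericyte markers averaged 7.46 ± 0.62 log2 CPM in hyperglycemic rats and 7.90 ± 0.78 in normoglycemic rats, with summed levels of 2352 to 7783 CPM in hyperglycemic and 2011 to 11081 CPM in normoglycemic rats. All 8 had a log2 difference below 0, from -1.07 for Anpep to -0.15 for Cspg4. By edgeR none was called, and 2, Notch3 (-1.0, unadjusted p = 0.00968) and Pdgfrb (-0.81, unadjusted p = 0.0400), had an unadjusted p under 0.05. Their part in the values of the 5 genes was not tested. Without T392F, the only female among the 5, Ehd4 was at -1.10 and Cav2 at -0.63.

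**Figure D3:**
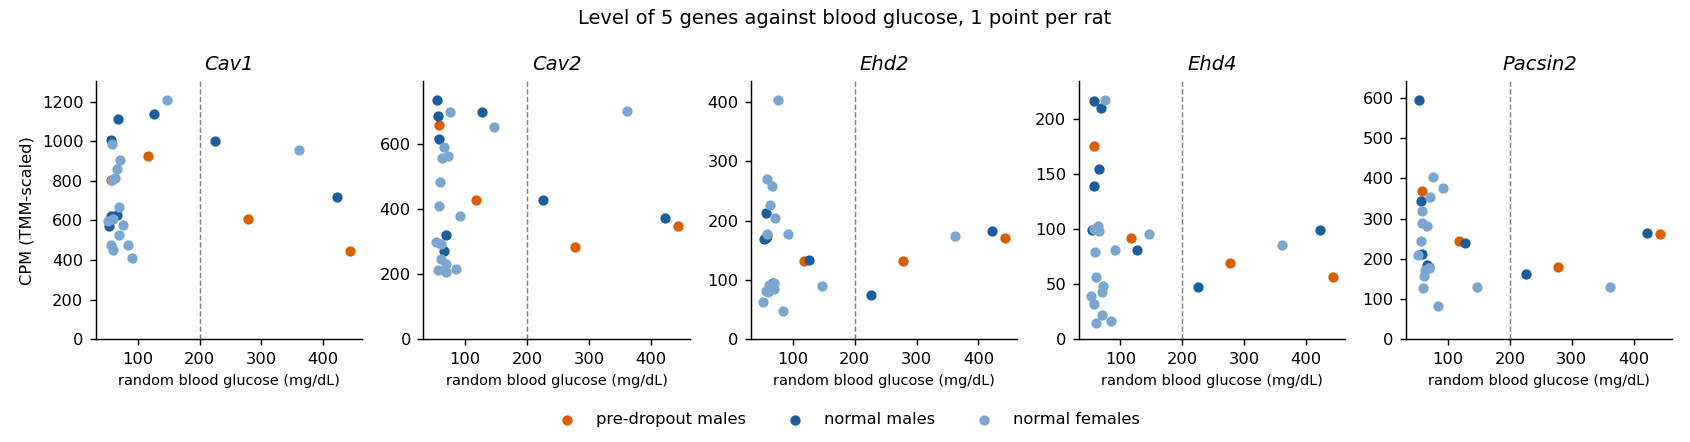
Level in CPM of the 5 tested genes (vertical axis) against random blood glucose (horizontal axis, mg/dL), each point a rat coloured by density group and sex, with a dashed line at 200 mg/dL. The 5 hyperglycemic rats lie inside the range of the other rats in each panel, and in Ehd4 they lie between 47.7 and 98.8 CPM, where normoglycemic rats reach 217 CPM.

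Taken as a continuous measure with sex as a covariate, glucose gave slopes per 100 mg/dL of -0.01 (95% interval -0.20 to 0.17) for Cav1, -0.02 (-0.23 to 0.19) for Cav2 and 0.02 (-0.22 to 0.27) for Ehd2 on the log2 scale. The slope was -0.18 (-0.48 to 0.12) for Ehd4 and -0.15 (-0.37 to 0.06) for Pacsin2. Of the 5 genes 0 were called, against 0% of 13800 genes, and 0 had an unadjusted p under 0.05, against 3.80% of those genes. The slopes rest on few rats, because only 5 of the 28 were above 200 mg/dL.

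Within the 24 normal rats the level of the 5 genes was set against acellular capillary density, with sex as a covariate. The slope per 5 acellular capillaries per mm2 was -0.26 (95% interval -0.70 to 0.17) for Cav1 and -0.27 (-0.84 to 0.29) for Cav2 on the log2 scale. It was 0.12 (-0.62 to 0.85) for Ehd2, 0.04 (-0.81 to 0.89) for Ehd4 and -0.15 (-0.78 to 0.48) for Pacsin2. Of the 5 genes 0 were called by edgeR, against 0% of 13677 genes, and 0 had an unadjusted p under 0.05, against 1.12% of those genes. DESeq2 also called none of the 5. In a fit that let the slope differ between males and females, 0 of the 5 genes were called, against 0% of 14955 genes, and 0 had an unadjusted p under 0.05, against 10.6% of those genes.

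Sex was compared within the normal rats, since the pre-dropout rats were all male. Of the 5 tested genes Ehd4 had the widest difference. It stood at a lowest value of 47.7, a median of 119 and a highest of 216 CPM in the 8 normal males, against 14.6, 67.9 and 217 CPM in the 16 normal females. Of the males 7 of 8 lay above the female median, though the ranges overlapped and the highest rat was a female, T430F. The means were 131 ± 60.2 CPM (SD, n = 8) in males and 70.8 ± 49.9 CPM (SD, n = 16) in females. The log2 difference was 0.95 (95% interval 0.18 to 1.71), a 1.93-fold difference, with unadjusted p = 0.0212 and adjusted p = 0.995 by edgeR's quasi-likelihood test, so that it did not pass over all genes.

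The caveolins were less different. Cav1 stood at 572, 861 and 1135 CPM (lowest, median and highest) in normal males, against 412, 636 and 1207 CPM in normal females, and Cav2 at 273, 523 and 736 CPM in normal males, against 206, 395.7 and 704 CPM in normal females. In each, 5 of 8 males lay above the female median. The log2 difference was 0.31 (95% interval -0.14 to 0.76) for Cav1, 0.38 (-0.18 to 0.94) for Cav2, 0.38 (-0.21 to 0.96) for Pacsin2 and -0.08 (-0.77 to 0.60) for Ehd2. Of the 5 genes 0 were called, against 0.0247% of 12162 genes, and 1 had an unadjusted p under 0.05, against 4.38% of those genes.

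The call for sex depended on the tool. By limma-voom with sample weights Ehd4 had a log2 difference of 1.23 (adjusted p = 0.0273), Cav1 of 0.73 (adjusted p = 0.0152) and Cav2 of 0.89 (adjusted p = 0.0249), all higher in males, and only Ehd4 was also past 2-fold. With the 2-fold limit, that fit called 5.96% of 12162 genes and, of the tested members, only Ehd4. The share of all genes without that limit is not given here. By limma-voom Cav1, Cav2 and Ehd4 had an unadjusted p under 0.05, as did 3340 of the 12162 genes. That fit placed the median log2 difference of all genes at -0.46, where edgeR placed it at -0.04. Marker lists were set beside these values. The pericyte markers averaged 8.12 ± 0.71 log2 CPM in normal males and 7.72 ± 0.78 in normal females, and the rod markers 3.68 ± 2.21 in normal males and 4.75 ± 1.75 in normal females. Summed, the 8 pericyte markers ranged over 4015 to 10339 CPM in males and 2011 to 11081 CPM in females, and the 9 rod markers over 169 to 4955 CPM in males and 199 to 2376 CPM in females. The part of pericytes was not tested. With the rod level as a covariate the log2 difference of Ehd4 was 0.64 (unadjusted p = 0.0841), with the endothelial level 0.77 (unadjusted p = 0.0394), and without the 2 libraries below 1000000 counts 0.86 (unadjusted p = 0.0501), all by edgeR.

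**Figure D4:**
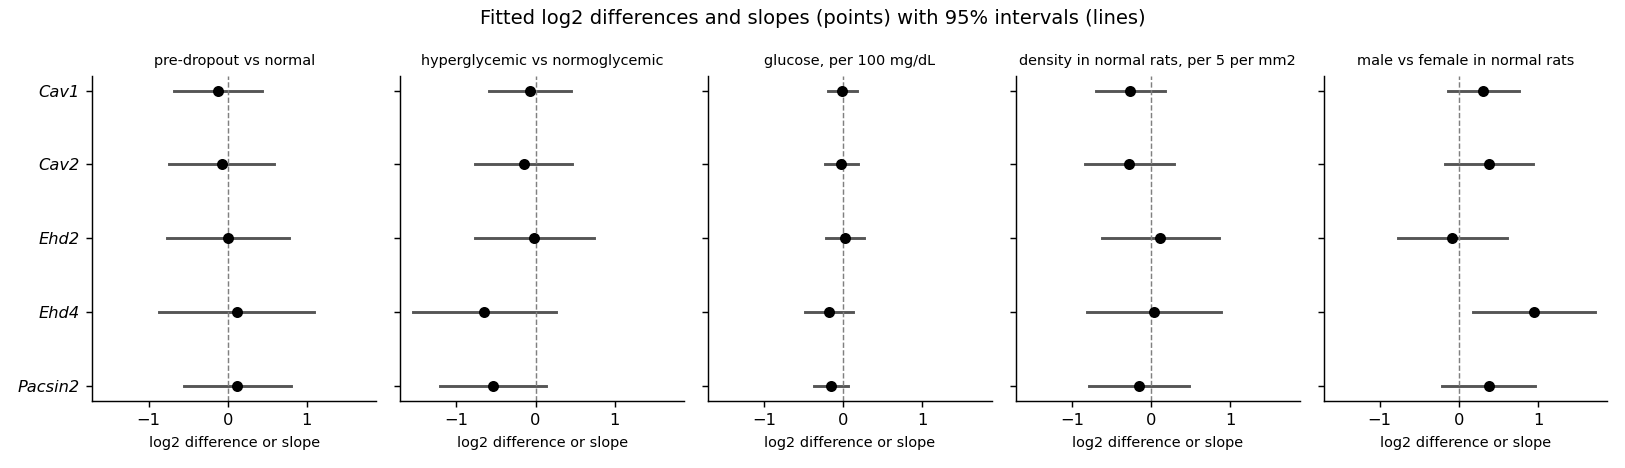
Fitted log2 differences, or slopes, of the 5 tested genes in 5 comparisons (points) with 95% intervals (lines), from edgeR's quasi-likelihood fit. The interval of Ehd4 between normal males and females, 0.18 to 1.71, lies above 0, and all others cross 0.

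Plvap, the marker of leaky vessels, was near the limit of detection. It had no count in 16 of the 28 rats and at least 10 expected counts in 5, and its counts over all rats summed to 163, against 87854 for Cav1 and 324958 for Cldn5. In the pre-dropout rats it stood at 0, 7.84, 0 and 0 CPM in T353M, T389M, T391M and T407M, with 34.0 counts in T389M. In the normal rats the highest value was 8.01 CPM in T404F (40.0 counts), followed by 4.13 CPM in T414F (41.5 counts), 2.29 CPM in T401F (18.9 counts) and 1.82 CPM in T393F (13.7 counts), all females. The mean was 0.0741 CPM in normal males and 1.198 CPM in normal females, a difference that was not tested. The median was 0 CPM in pre-dropout and in normal rats, and the groups overlapped. T389M was also the only one of the 5 hyperglycemic rats with a Plvap count, and the rat of highest glucose.

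A count of 0 allows up to 3 counts from counting error alone. This limit lay between 0.359 and 3.21 CPM of the library total in 15 of the 16 rats at 0 and at 19.6 CPM in T410F, the smallest library, so that a level like that of T389M was not excluded there. The 5 rats with at least 10 Plvap counts had libraries of 4719195 to 9312688 counts, against 153108 to 10029198 in the other 23 rats, and T398F, with 8352992 counts, had 0 Plvap counts. In those 5 rats the markers of inner retinal neurons averaged 5.11 to 6.66 log2 CPM, against 0.83 to 6.42 in the other 23 rats. Their markers of the retinal pigment epithelium averaged -1.21 to 2.61 log2 CPM, against -1.21 to 3.13 in the other rats, and those of choroidal melanocytes -0.94 to 1.96, against -1.21 to 1.41. In T389M the 5 pigment epithelium genes had 0 counts and the 5 melanocyte genes summed to 2.72 counts, whereas in T414F they summed to 582 and 211 counts. The part of these cells in the Plvap counts was not tested.

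A list of 33 further genes of caveolae and transcytosis was examined beside the 6, of which 31 had enough counts for the test. Of the cavins, the coat proteins of caveolae, Ptrf (Cavin1) had a median of 839 TPM, close to Cav1, while Prkcdbp (Cavin3) had 280 TPM and Sdpr (Cavin2) 257 TPM. Mfsd2a, the lipid transporter that suppresses transcytosis in barrier endothelium, had a median of 91.4 TPM. Between pre-dropout and normal rats 16 of the 31 genes were higher and 15 lower, with a median log2 difference of 0.01, and edgeR called 0. Of the 31, 1 had an unadjusted p under 0.05, a share near the 2.86% of all 13800 genes. This was Lrp1, a receptor carried across endothelium, which stood at 110 ± 15.9 CPM in pre-dropout rats and 210 ± 93.1 CPM in normal rats (SD), a log2 difference of -0.94 (unadjusted p = 0.0166 and adjusted p = 1.0, edgeR). The pre-dropout rats were all male, and Lrp1 stood at 177 ± 62.8 CPM in normal males and 226 ± 103 CPM in normal females (SD). Tfrc, the transferrin receptor, had the next smallest p, at 237 ± 47.4 CPM in pre-dropout rats and 166 ± 66.0 CPM in normal rats (unadjusted p = 0.114, edgeR).

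With hyperglycemia 10 of the 31 genes were higher and 21 lower (median log2 difference -0.11), edgeR called 0, and 0 had an unadjusted p under 0.05. Ptrf had the smallest p. It stood at 418 ± 229 CPM in hyperglycemic rats and 576 ± 306 CPM in normoglycemic rats (log2 difference -0.75, unadjusted p = 0.0643). Dnm1, the neuronal dynamin, followed, at 95.7 ± 96.3 and 94.7 ± 95.1 CPM in hyperglycemic and normoglycemic rats, with a log2 difference of 1.71 once sex was a covariate (unadjusted p = 0.0727). For the glucose slope 14 genes were above 0 and 17 below, led by Snap23, a protein of vesicle fusion (-0.23 per 100 mg/dL), and Ptrf (-0.18). For the density slope 15 were above 0 and 16 below, led by Dnm1 (1.50) and Nsf (0.83), the ATPase that takes fusion complexes apart. None of either slope had an unadjusted p under 0.05.

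Between normal males and females 23 of the 31 genes were higher in males and 8 lower, with a median log2 difference of 0.33, against -0.04 over all genes. By edgeR 0 of them were called, against 0.0247% of 12162 genes, and 3 had an unadjusted p under 0.05, all higher in males, against 4.38% of those genes. Scarb1, a lipoprotein receptor, stood at 184 ± 86.4 CPM in males and 97.2 ± 36.1 CPM in females, a log2 difference of 1.04 (unadjusted p = 0.000999 and adjusted p = 0.347, edgeR). Prkcdbp stood at 121 ± 46.2 CPM in males and 56.3 ± 38.4 CPM in females (log2 difference 1.18, unadjusted p = 0.0174). In the fit of the slope on density by sex 2 of the 31, Dnm1 (6.76) and Pacsin1 (7.29), both known from neurons, had an unadjusted p under 0.05. This was a smaller share than the 10.6% of all 14955 genes. Dnm1 had 0 counts in 1 normal rat of each sex. Pacsin1 stood at 0 CPM in 3 of the 8 normal males and in 1 of the 16 normal females.

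Among themselves the genes did not move as 1 block over the rats. Spearman's rho of log2 CPM over the 28 rats, given as a description because all values of a rat share 1 library, was 0.67 for Ehd2 with Pacsin2, 0.61 for Cav2 with Ehd2, and 0.60 for Ehd4 with Cav2 and with Ehd2. The caveolins were less alike, with a rho of 0.46. Cav1 stood apart from the others, with 0.35 for Ehd4, 0.16 for Ehd2 and -0.13 for Pacsin2. Cav1 was also the gene with the strongest relation to depth, with a rho of -0.51 to the total count of the library. This rho was -0.39 for Ehd4 and between -0.22 and 0.04 for Cav2, Ehd2 and Pacsin2. The number of genes with a count in the library gave another order. There the rho was -0.62 for Ehd4, -0.56 for Ehd2, -0.54 for Cav2, -0.47 for Pacsin2 and -0.38 for Cav1.

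The genes were next set beside the marker lists. The rho with the mean of 8 pericyte markers was 0.80 for Cav2, 0.71 for Ehd4, 0.70 for Ehd2, 0.61 for Pacsin2 and 0.41 for Cav1. With the mean of 12 endothelial markers it was 0.71 for Ehd2, 0.63 for Cav2 and for Pacsin2, 0.41 for Ehd4 and 0.06 for Cav1. With rod markers it was -0.67 for Ehd4, -0.58 for Ehd2, -0.54 for Pacsin2, -0.49 for Cav2 and -0.04 for Cav1. With markers of inner retinal neurons it was -0.68 for Cav2, -0.55 for Ehd2, -0.53 for Ehd4, -0.48 for Pacsin2 and -0.47 for Cav1. With smooth muscle markers it lay between -0.06 for Cav1 and 0.40 for Pacsin2. Markers of Mueller glia and astrocytes gave -0.48 for Ehd2, -0.38 for Cav2, -0.35 for Ehd4, -0.24 for Pacsin2 and 0.11 for Cav1. Lists of macrophage, pigment epithelium and melanocyte genes also gave negative values, but most of their genes were near 0 counts, and such values are a weak base for a correlation.

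**Figure D5:**
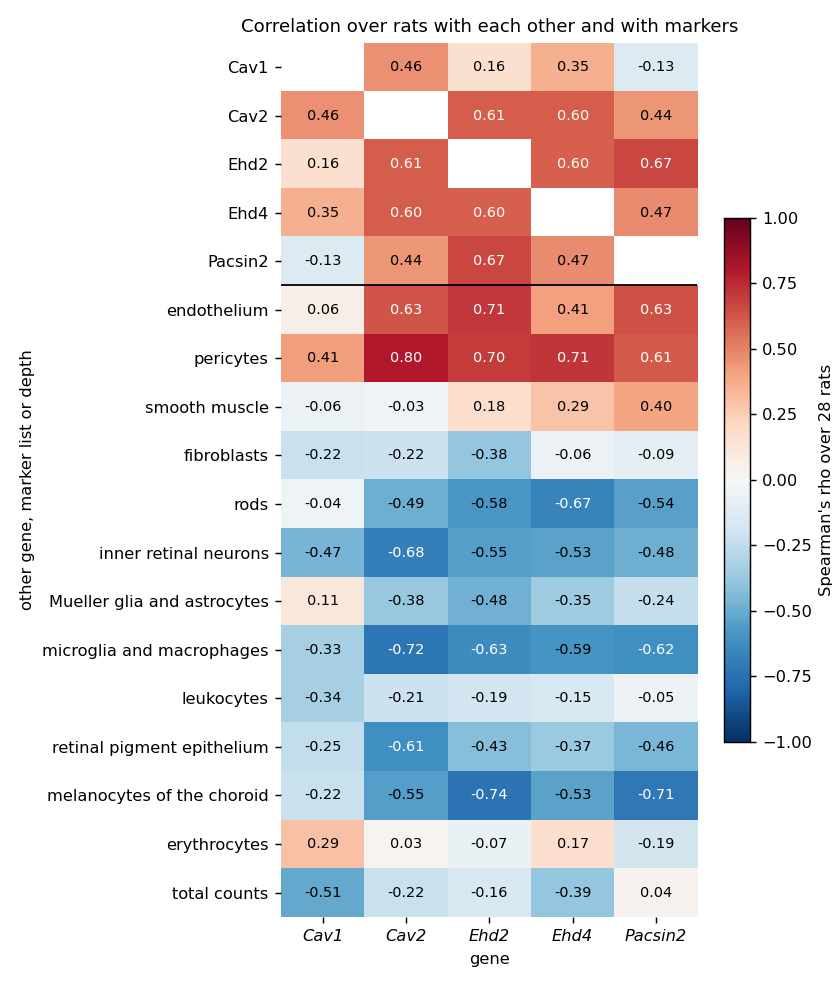
Spearman's rho over 28 rats between the log2 CPM of each of the 5 genes (columns) and that of the other genes, the mean log2 CPM of marker lists and the total count of the library (rows), with the value written in each field. Cav2 reaches 0.80 with pericyte markers, and Cav1 has 0.06 with endothelial markers and -0.51 with total counts.

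The genes most like each of the 6 were sought over 8532 other genes (8533 for Plvap) with a median of at least 10 CPM. Most like Cav1 were Fundc1 (rho 0.83), Atp5d (0.75) and Rpl9 (0.74), and most like Cav2 were Timp3 (0.90), Ppp1cb (0.89) and Rap1b (0.87). Ehd2 was closest to H2-Q4 (0.85), App (0.82) and Usp42 (0.82), and Ehd4 to Lims2 (0.79), Col14a1 (0.77) and Stom (0.76). For Pacsin2 they were Eif4b (0.85), the cavin Ptrf (0.85) and Sparcl1 (0.82). Plvap was closest to Man2c1 (0.70), Smarcd1 (0.69) and Zc3h18 (0.66), with 16 rats tied at 0. Of the other 5 genes the one nearest to Pacsin2 was Ehd2, at rank 69, the nearest to Ehd4 was Cav2, at rank 122, and the nearest to Ehd2 was Pacsin2, at rank 140. The caveolins had theirs farther down, with Cav2 at rank 375 for Cav1 and Ehd2 at rank 382 for Cav2.

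Values of the EHD genes carry an uncertainty, because the 4 paralogs are similar and the estimated counts can divide reads between them. Ehd1 had a median of 276 counts but 2 in T425M and 12.1 in T419F, and Ehd3, at 0 in 5 rats, reached 911 counts in T425M. The part of shared reads in the levels of Ehd2 and Ehd4 was not tested. In the RefSeq annotation of the Nile rat genome each of the 6 symbols has 1 entry, and Cav1 and Cav2 are neighbours, between Met and Tes.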

How the data were processed

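One RNA-seq library was made from the retinal vessels of each of 28 Nile rats. The authors deposited expected counts per gene, not normalized between libraries, and TPM. Rows carry mouse symbols and mouse Ensembl identifiers, as values of the comparative RNA-seq pipeline (CRSP), which assembles transcripts and assigns them to mouse genes, would. That the tables come from CRSP rather than from genome mapping was taken from these identifiers. The rows of Cav1 and Cav2 pool 3 mouse transcripts each. The tool versions and the mouse build are not given in the sources used here. Density and glucose come from the labels, and the unit mg/dL from the study's methods. Groups follow the study's limits (17 to 18 per mm2 against below 16).

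Expected counts were rounded and tested in R 4.3.3 by the quasi-likelihood F test of edgeR 4.0.16, after TMM scaling and filterByExpr (minimum count 10), with adjustment by Benjamini-Hochberg over all genes. Calls needed an adjusted p under 0.05 and, between groups, more than 2-fold change. EBSeq, which the study used, was not installed. Sex was a covariate for glucose and for the density slope. SE is the absolute log2 value over the square root of F, and 95% intervals are 1.96 SE to each side. Plvap passed the filter only in the fit of density slope by sex, where its interval was too wide to be read. CPM and log2 CPM (prior count 2) were computed from the deposited counts with TMM. Filters and fits were also run on simulated counts, and the share of changed genes they recovered is not given here.

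Alternatives were DESeq2 1.42.0 and its size factors, no filter, limma-voom with sample weights (limma 3.58.1), limma on log2 of TPM plus 1, endothelial or rod markers, sex or glucose as covariate or no covariate, log2 glucose, normal rats only, all rats, males only, libraries of at least 1000000 counts, and each rat of the smaller group left out. The text names the 6 genes, the list genes called or else the 2 of smallest p per comparison, and the 3 genes of highest rho per gene. The Ehd1 and Ehd3 counts were chosen after their values were seen. The 6 genes and all lists were chosen with earlier results of these data known. Limits for a count of 0 cover counting error only, and the 95% intervals cover the spread between rats. Of the table symbols 14497 of 18970 stand in the Nile rat annotation, whose coordinates were not used. Figures were drawn with matplotlib 3.10.9.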

Additional observations from a re-analysis of the deposited data

Results flagged for a closer look

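Plvap stood at 7.84 CPM in T389M, far from the other 3 pre-dropout rats and from the other 4 hyperglycemic rats, all of which were at 0 CPM. A gene in which the other rats of a group are at 0 is picked out by any single count. Pacsin2 stood at 594 CPM in T425M, far from the other 7 normal males, of which the next was at 343 CPM. In the same library Ehd3 was at its highest (911 counts) and Ehd1 at its lowest (2 counts). The limit used is passed by chance in about 1 in 20 groups if values are normally distributed, and 18 such tests were run.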

How the results depend on the processing

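Of 305 values of the 5 tested genes under an alternative, 258 kept their direction and their side of the threshold, 44 changed direction, 42 of them by a value within 1 SE of 0, and 3 passed the threshold of the adjusted p. Those 3 were Cav1, Cav2 and Ehd4 between normal males and females by limma-voom. The changes of direction between pre-dropout and normal rats were -0.010 for Ehd2 with DESeq2's size factors, -0.0098 by DESeq2, -0.042 without the libraries below 1000000 counts and 0.17 for Cav2 by limma-voom. They were -0.34 for Ehd2, -0.21 for Ehd4 and -0.11 for Pacsin2 with the endothelial covariate, -0.41 for Ehd4 and -0.051 for Pacsin2 with sex as covariate, and -0.44 for Ehd4 and -0.091 for Pacsin2 in males only. Leaving out each pre-dropout rat gave -0.25 to 0.052 for Cav1, -0.35 to 0.088 for Cav2, -0.066 to 0.091 for Ehd2, -0.33 to 0.29 for Ehd4 and -0.068 to 0.28 for Pacsin2. For hyperglycemia they were, in Ehd2, 0.028 with DESeq2's size factors and by DESeq2, 0.010 on log2 TPM, 0.044 with the endothelial and 0.35 with the rod covariate, and in Cav2 0.11 with the rod covariate. Leaving out each hyperglycemic rat gave -0.30 to 0.049 for Cav1 and -0.13 to 0.14 for Ehd2. For the glucose slope they were, in Ehd2, -0.0059 without the libraries below 1000000 counts, -0.021 with the endothelial covariate, -0.0096 with log2 glucose and -0.0059 in normal rats only, in Cav2 0.033 with the rod covariate and 0.066 in normal rats only, and in Cav1 0.0065 without a covariate, 0.035 with log2 glucose and 0.095 in normal rats only. For the density slope they were -0.017 for Ehd2 by limma-voom, -0.033 for Ehd4 on log2 TPM, -0.16 for Ehd4 in all 28 rats and 0.0097 for Pacsin2 with the endothelial covariate. Between the sexes Ehd2 was at 0.0042 without the libraries below 1000000 counts and at 0.56 by limma-voom. In the slope by sex Cav1 was at -0.0063 with DESeq2's size factors and -0.0068 by DESeq2, and Ehd4 at 0.12 without the libraries below 1000000 counts. Causes of these changes were not tested.

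Counts of called genes over the whole table moved more. For pre-dropout against normal rats edgeR called 0, DESeq2 5, limma-voom 4, edgeR without a filter 72 and with the endothelial covariate 23. For hyperglycemia DESeq2 called 44 and edgeR without a filter 1. For the glucose slope DESeq2 called 21, edgeR without a filter 152, with the endothelial covariate 5 and in normal rats only 2. For the density slope edgeR called 45 without a filter and 1 with the rod covariate. Between the sexes DESeq2 called 34, limma-voom 725 and limma on log2 TPM 6, against 3 by edgeR, and for the slope by sex DESeq2 called 288. Leaving out each pre-dropout or hyperglycemic rat left these 2 comparisons at 0 calls. The median log2 difference of all genes between the sexes was -0.04 by edgeR, -0.18 with DESeq2's size factors and -0.46 by limma-voom. No paired analysis was possible because the groups hold different rats and the labels give no numbers that pair them. The counts of Plvap were too few for a test between groups, and with 4 pre-dropout rats the intervals of the other 5 genes reached 0.43 to 1.09 above 0 on the log2 scale.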
